A study of Mus musculus with 8 samples.

Results

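The collagen genes and the fibroblast matrix genes were examined in the kidney RNA-Seq of mice with and without inducible deletion of c-Maf. The genes were chosen by name and count: every gene symbol of the collagen form (Col, number, a, number) apart from Col4a3, Col4a4 and Col4a5, plus Fn1, Dcn, Lum, Pdgfra, Pdgfrb, Acta2, Tgfb1, Postn and Lox, each with 10 or more counts in at least 4 libraries. Of 50 candidates, 42 met the count rule (33 collagen genes and the 9 named genes), out of 55367 genes in the table. All 42 passed the filter on low counts and were among the 20149 genes tested. The libraries were from whole kidneys of C57BL/6J mice that the labels give as 8 weeks old, 4 from Maf conditional KO mice and 4 from Maf flox/flox mice, named ΔTAM and fl/fl here. ΔTAM mice carried floxed c-Maf alleles and the CAG-Cre-ER TM transgene, a tamoxifen-activated Cre under a ubiquitous promoter, so that c-Maf was deleted in all cell types the Cre reached. fl/fl mice carried the floxed alleles without Cre. Both genotypes received tamoxifen, and no diabetes had been induced in them. In the paper the nondiabetic mice were mostly studied 10 days after tamoxifen, and the RNA-Seq is discussed for that time. No control carried the Cre without the floxed alleles. The comparison asks how loss of c-Maf, a large Maf transcription factor, goes with the RNA of the renal matrix.

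Collagens are trimeric matrix proteins. Types I, III and V assemble into the fibrils of the interstitium, type IV forms the network of basement membranes, and type VI forms beaded filaments between them. In the kidney the interstitial types are made mainly by fibroblasts and pericytes, which carry the PDGF receptors, and their build-up under TGF-β is the hallmark of renal fibrosis. The glomerular chains α3, α4 and α5 of type IV are made by podocytes and were set apart by the rule. In whole-kidney RNA, fewer cells of a type and less RNA per cell cannot be told apart.

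The libraries held 16649129 to 22990257 counts, of which the 42 genes together took 0.159% to 0.289%. Maf was at 9.06, 34.5, 29.6 and 10.1 CPM (counts scaled to library size, with TMM factors) in the ΔTAM mice and at 380, 342, 305 and 351 CPM in the fl/fl mice. The Maf groups did not overlap (log2 fold change -4.05, adjusted P = 0.0115). The label's tissue was checked because the protocol text names another organ: Lrp2, the megalin receptor of the proximal tubule, was at 4466 CPM or more in every library. Of the 7 hepatocyte markers, Alb, Apoc3 and Fgb were at 8.85 CPM or less, Serpina1a at 14.5 CPM or less and Ttr at 67.8 CPM or less, and Apoa1 was too low to be tested. Cyp2e1 was at 1398 CPM in ΔTAM mouse 1, 433 and 606 CPM in fl/fl mice 3 and 4, and 47.2 to 134 CPM in the others. Xist, the RNA made from an inactive X chromosome, was low in ΔTAM mouse 1 (2 counts), fl/fl mouse 3 (6 counts) and fl/fl mouse 4 (22 counts) and at 17618 to 22387 counts elsewhere. The sexes are not stated. The share of mitochondrial genes was 32.3% in ΔTAM mouse 1 and 25.5% in fl/fl mouse 4, against 17.1% to 22.1% in the other 6 libraries. Each library is taken as 1 mouse, from the number of mice per group that the study states for this experiment.

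Most of the collagen and matrix genes differed little between the genotypes. At an adjusted P under 0.05, 2 of the 42 genes (4.76%) were called, against 2.16% of all genes tested. Both were lower in ΔTAM mice, where 1.58% of all genes were called lower. None of the 42 was called higher, against 0.586% of all genes, and 1 was higher at an unadjusted P under 0.05. In all, 3 of the 42 (7.14%) had an unadjusted P under 0.05, against 14% of all genes. The genotypes did not overlap in 3 of the 42 genes (7.14%), against 9.79% of all genes tested. The log2 fold change was positive in 21 genes and negative in 21, with a median of 0.0019 beside 0.0027 over all genes tested. It lay within ±0.25 in 29 genes and within ±0.5 in 37, and the 95% interval lay within ±1, a doubling or halving, in 31 of the 42.

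**Figure D1:**
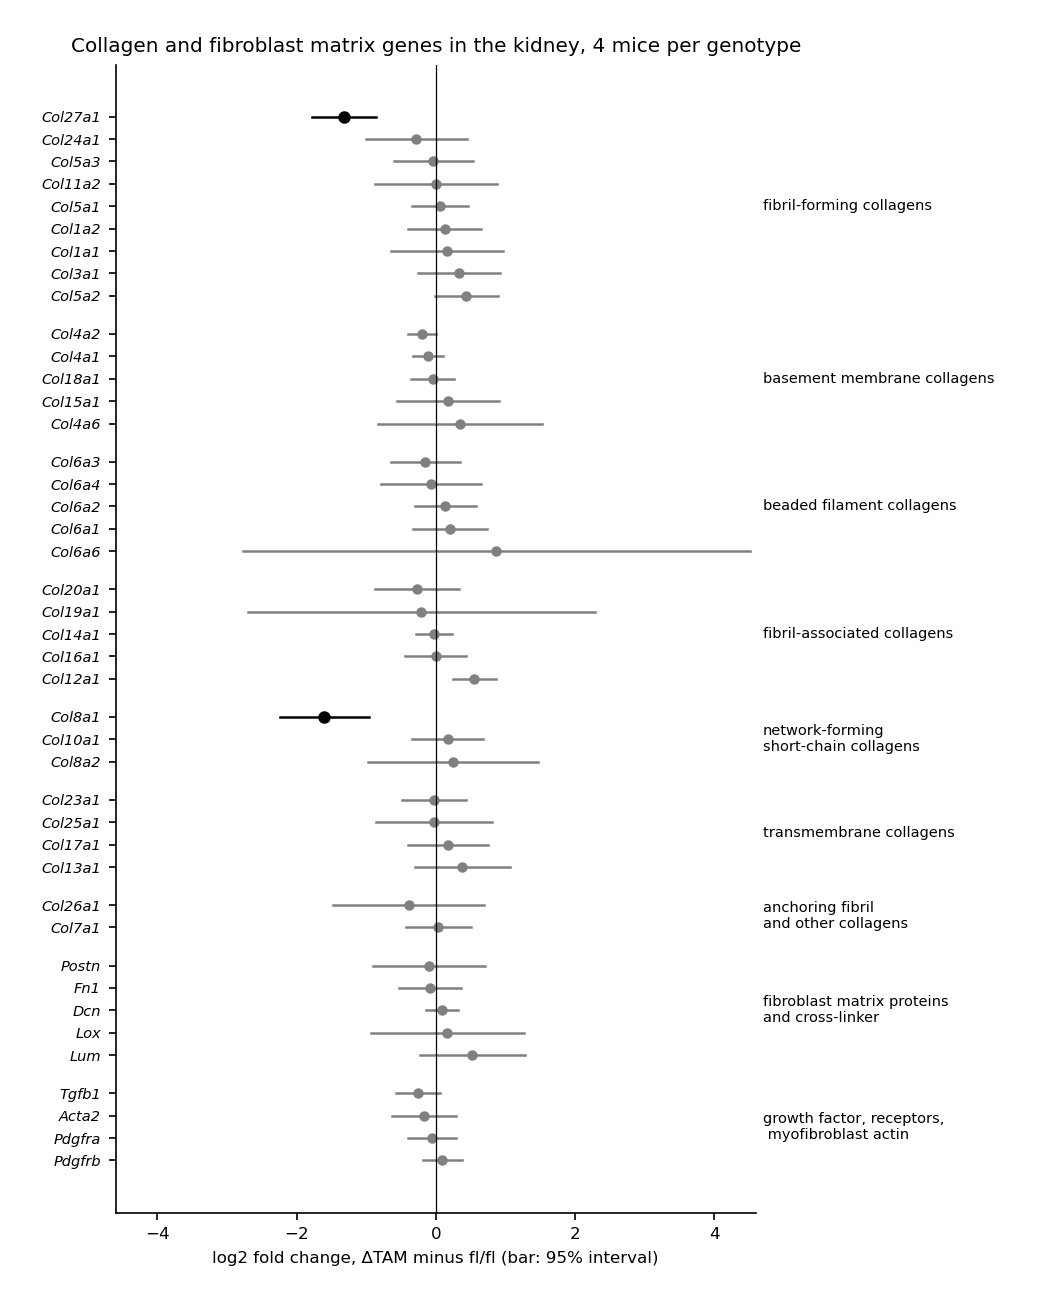
Log2 fold change of each of the 42 genes (ΔTAM minus fl/fl, horizontal axis), with the 95% interval as a bar, grouped by the role of the protein and ordered within each role. Black marks the genes with an adjusted P under 0.05, Col27a1 at -1.32 and Col8a1 at -1.60, while the other 40 are grey and the bars of Col6a6 and Col19a1 are the widest.

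The fibril-forming chains are the first group, 9 genes of which 1 was called, lower, and their median log2 fold change was 0.06. The called gene was Col27a1 (chr4:63214004-63334991, plus strand, GRCm38), which encodes the chain of type XXVII collagen, a fibrillar collagen best known from cartilage. It was at 30.0, 47.9, 59.3 and 52.7 CPM in the ΔTAM mice, numbered 1 to 4, and at 107, 122, 146 and 98.5 CPM in the fl/fl mice. Every ΔTAM mouse lay below every fl/fl mouse, and the mean was 47.5 ± 12.6 against 118 ± 20.8 CPM (SD, n = 4 each). Col27a1 fell by 1.32 on the log2 scale (SE 0.21, 95% interval -1.78 to -0.85, adjusted P = 0.0114), and the exact two-sided permutation P was 0.0286, the smallest that 4 against 4 mice can give. It remained past the threshold in all 8 fits that left out 1 mouse. With every gene that had at least 1 count in any mouse in the fit, its log2 fold change was -1.32 with an adjusted P of 0.0534.

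The other fibrillar chains did not pass the threshold. Col1a1, the α1 chain of type I collagen and the main fibril protein of scar, was at 65.9, 67.7, 121 and 86.2 CPM in ΔTAM mice and at 119, 81.5, 60.1 and 43.3 CPM in fl/fl mice. The highest and the lowest values of the genotypes interleaved, and the log2 fold change was 0.17 (95% interval -0.64 to 0.97, adjusted P = 0.879). Its partner chain Col1a2 had a log2 fold change of 0.13 (adjusted P = 0.863). Col3a1, the type III chain that mixes with type I in fibrils, had a log2 fold change of 0.33 (95% interval -0.26 to 0.92, adjusted P = 0.631). Col5a2, a type V chain that sets the width of type I fibrils, was at 28.9, 56.1, 59.9 and 39.6 CPM against 34.4, 35.1, 34.7 and 31.7 CPM. It was spread widely in ΔTAM mice (CV 31.4%) and little in fl/fl mice (CV 4.49%), and mouse 1 of the ΔTAM group was below all the fl/fl mice. Its log2 fold change was 0.44 with an adjusted P of 0.367, and 0.61 with an adjusted P of 0.0271 once ΔTAM mouse 1 was left out. The remaining 4 chains of the group (Col5a1, Col5a3, Col11a2 and Col24a1) had log2 fold changes from -0.28 to 0.06, none with an unadjusted P under 0.05.

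The network-forming short-chain collagens held the other called gene. Col8a1 (chr16:57624258-57754737, minus strand, GRCm38) encodes the α1 chain of type VIII collagen, a short-chain collagen of vessel walls and of the Descemet membrane of the eye. It was at 4.43, 4.78, 5.93 and 7.04 CPM in ΔTAM mice and at 14.5, 11, 27.8 and 14 CPM in fl/fl mice, with no overlap. fl/fl mouse 3 was the highest of its group. The mean was 5.54 ± 1.19 against 16.8 ± 7.49 CPM (SD, n = 4 each). Col8a1 fell by 1.60 on the log2 scale (SE 0.29, 95% interval -2.24 to -0.96, adjusted P = 0.0194, exact two-sided permutation P = 0.0286). Without ΔTAM mouse 1, 2 or 3 the adjusted P was 0.0682, 0.0805 and 0.0752 with log2 fold changes of -1.50, -1.54 and -1.64, and with all genes of at least 1 count it was 0.0617. Its partner chain Col8a2 was far less abundant, at 0.205 to 1.83 CPM over all mice, with a log2 fold change of 0.24 (95% interval -0.98 to 1.46). Col10a1, the type X chain of growth plate cartilage, was at 0.17. Among the markers of vessel cells, the summed level of 8 smooth muscle markers was 171 to 228 CPM in ΔTAM and 194 to 244 CPM in fl/fl mice, with none of the 8 called and the largest part of the sum from Smtn. The log2 fold change was negative in 7 of the 8, with a median of -0.19, and the genotypes did not overlap in 2, both lower: Tagln (-0.44, adjusted P = 0.233), which shares 67.9% of its exonic bases with Gm48529, and Lmod1 (-0.41, adjusted P = 0.27). Of all genes tested, 9.79% did not overlap in either direction and 1.58% were called lower. The summed level of 6 endothelial markers was 391 to 407 CPM in ΔTAM and 417 to 477 CPM in fl/fl mice, and 1 of the 6, Kdr, was called lower (log2 fold change -0.37, adjusted P = 0.045). Their part in the result for Col8a1 was not tested.

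The 5 mice with high Xist, 3 of ΔTAM and 2 of fl/fl, were also fitted alone. They are part of the same 8 mice, in which neither called gene overlapped between the genotypes. That both genes were lower there too is therefore no separate evidence. In that fit the log2 fold change was -1.10 for Col27a1 (adjusted P = 7.4e-06) and -1.11 for Col8a1 (adjusted P = 0.00387). Maf was at -3.87 and was not called (adjusted P = 0.108).

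**Figure D2:**
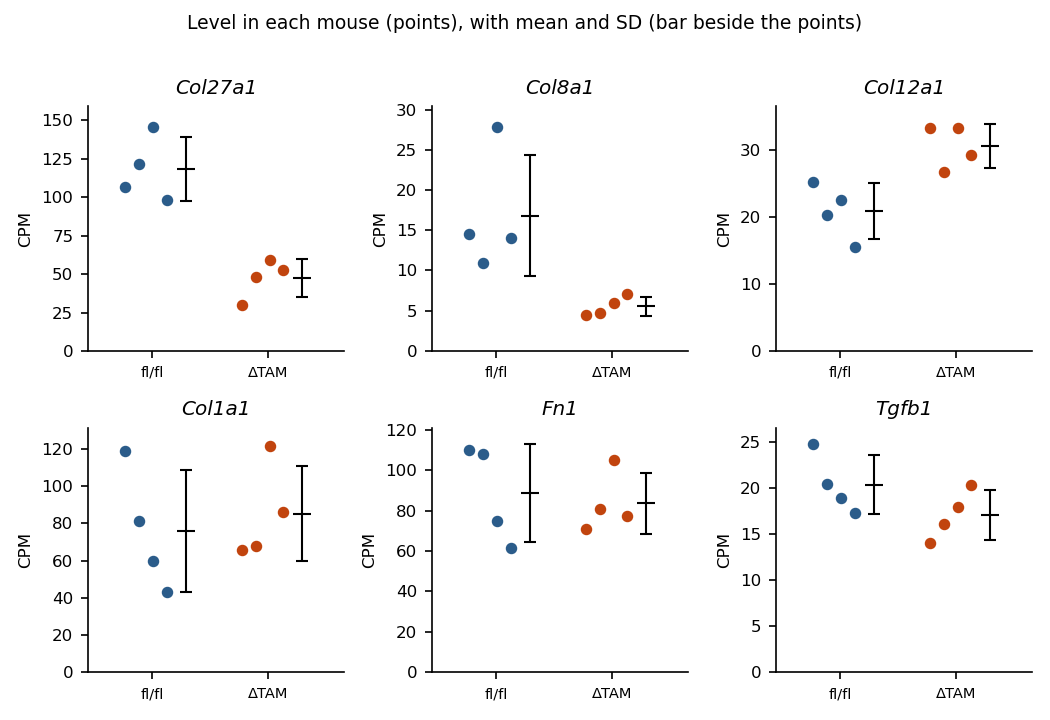
Level in CPM (vertical axis, starting at 0) of 6 of the genes in each mouse, fl/fl in blue and ΔTAM in red, points in the order of mice 1 to 4, with the mean and SD beside them. Col27a1 and Col8a1 were lower in all ΔTAM mice, Col12a1 was higher without passing the threshold, and the groups overlapped in Col1a1, Fn1 and Tgfb1.

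The DNA before the RefSeq start of both called genes is shown because they were the members past the threshold and a transcription factor was deleted. The sequences are the 250 bases before the gene start in the RefSeq annotation of GRCm38.p6, read 5′ to 3′ on the gene's strand, at chr4:63215162-63215411 for Col27a1 and chr16:57754738-57754987 for Col8a1. The annotation used for the counts starts Col27a1 further upstream than RefSeq does, so the Col27a1 window lies inside the gene as counted, in an intron of a noncoding transcript in GENCODE M21, whereas the Col8a1 window lies just before the gene in both. Capitals mark the GC box GGGCGG or its reverse complement CCGCCC, a motif bound by Sp family factors.
Col27a1: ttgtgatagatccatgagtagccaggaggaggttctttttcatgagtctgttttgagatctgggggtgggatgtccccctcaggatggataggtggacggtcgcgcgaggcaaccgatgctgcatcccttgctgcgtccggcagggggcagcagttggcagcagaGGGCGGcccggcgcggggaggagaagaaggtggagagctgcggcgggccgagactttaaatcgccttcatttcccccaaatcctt
Col8a1: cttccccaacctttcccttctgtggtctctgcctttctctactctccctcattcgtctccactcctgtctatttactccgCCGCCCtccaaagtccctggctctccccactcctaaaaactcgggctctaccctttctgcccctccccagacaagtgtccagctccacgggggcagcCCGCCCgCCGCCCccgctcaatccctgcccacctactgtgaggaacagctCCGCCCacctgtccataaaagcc
Col27a1 had 1 GC box, 85 bases before the start, and Col8a1 had 4, the nearest 23 bases before it, with G and C at 59.6% and 60.8% of the bases. A promoter entry was found for 32 of the 42 members, and 18 of these (56.2%) held a GC box, against 32.7% of all 32851 promoters of the same length. The MARE core TGCTGAC, letters that Maf proteins can bind, was searched on both strands and was in none of the 32 members' windows, the 2 above included, and in 3.81% of all promoters. The TRE letters TGACTCA, which occur inside one type of MARE, were in 1 member, Col6a1, and in 4.46% of all promoters. The TATA letters TATAAA were in 6 members (18.8%) and in 12.4% of all promoters. A member was counted once if any of its promoter entries held the letters, whereas the shares of all promoters count single entries. The shares are therefore in unlike units, and a gene with several entries has more chances to match. These are letter matches within 250 bases, not measured sites.

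The fibril-associated collagens decorate the surface of the fibrils, and none of their 5 genes was called. Col12a1, the chain of type XII collagen found in dense connective tissue, was at 33.2, 26.6, 33.3 and 29.2 CPM in ΔTAM mice and at 25.2, 20.2, 22.5 and 15.4 CPM in fl/fl mice. All ΔTAM mice lay above all fl/fl mice, by a narrow margin between the nearest values (26.6 and 25.2 CPM). The log2 fold change was 0.55 (95% interval 0.24 to 0.86, adjusted P = 0.0769, exact two-sided permutation P = 0.0286). It passed the threshold in the edgeR exact test (adjusted P = 0.0357), in DESeq2 (0.0247), with all genes of at least 1 count (0.0125), with Xist as a covariate (0.0286) and without fl/fl mouse 1 (0.0452), and the fit of the 5 high-Xist mice gave 0.39 (adjusted P = 0.142). Col14a1, another fibril-associated chain, differed by less than the spread between mice, at -0.02 (95% interval -0.28 to 0.24), with values of 62.9 to 85.6 CPM over all mice. Col16a1 was at 0.00 (95% interval -0.44 to 0.43) and Col20a1 at -0.27 (adjusted P = 0.728).

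The basement membrane collagens held the 3 most abundant of the 42 genes, Col4a1, Col4a2 and Col18a1, and none of the 5 was called. Col4a1 and Col4a2, the ubiquitous type IV chains that lie head to head on chromosome 8, were at 369 to 471 and 263 to 327 CPM in ΔTAM mice and at 412 to 467 and 306 to 341 CPM in fl/fl mice. The ranges overlapped in both, with log2 fold changes of -0.11 (95% interval -0.33 to 0.11, adjusted P = 0.681) and -0.19 (95% interval -0.39 to 0.01, adjusted P = 0.385). Both intervals exclude a doubling or a halving. Col18a1, the chain whose end is cut off as endostatin, was at -0.05 (95% interval -0.36 to 0.26). Col15a1 was at 0.18 and Col4a6 at 0.35, with intervals of -0.56 to 0.91 and -0.83 to 1.53. Of the 3 chains set apart by the rule, Col4a3 was at 316 to 359 CPM in ΔTAM and at 422 to 461 CPM in fl/fl mice and was called lower (log2 fold change -0.38, adjusted P = 0.0349), Col4a4 also did not overlap (-0.32, adjusted P = 0.0859), and Col4a5 was at -0.02 (adjusted P = 0.972). The call of Col4a3 was lost in each of the 8 fits that left out 1 mouse (adjusted P 0.0519 to 0.122), with log2 fold changes of -0.41 to -0.34. It was kept in 7 of the 11 other alternatives, and quantile normalization gave -0.26 (adjusted P = 0.305). The difference between these chains and Col4a1 and Col4a2 was not tested.

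The type VI chains form beaded filaments, and none of the 5 genes was called. Col6a1 was at 51.3, 50.3, 63.5 and 51.0 CPM in ΔTAM mice and at 66.8, 53.6, 36.1 and 30.4 CPM in fl/fl mice. The fl/fl values spanned the ΔTAM values on both sides, and the log2 fold change was 0.21 (adjusted P = 0.761). Col6a2 was at 0.13, Col6a3 at -0.15 and Col6a4 at -0.07. In the 5 mice with high Xist, Col6a3 passed the threshold at -0.42 (adjusted P = 0.0153), where the 3 ΔTAM mice were at 110 to 125 CPM and the 2 fl/fl mice at 146 and 172 CPM. Col6a6 had the widest interval of the 42 genes (-2.77 to 4.51 on the log2 scale). ΔTAM mouse 1 was at 14.1 CPM and the other 3 mice of its group at 0.154 to 0.665 CPM, while fl/fl mice 1 to 4 were at 0.392, 0.451, 3.20 and 4.52 CPM. The transmembrane collagens were at 6.04 CPM or less in every mouse. Col13a1, a chain of adhesive junctions, was at 0.38 (adjusted P = 0.642), Col17a1 at 0.18, Col23a1 at -0.03 and Col25a1 at -0.02. Col7a1, which builds the anchoring fibrils under epithelia, was at 0.03 (95% interval -0.43 to 0.50), and Col26a1 was at -0.39 (95% interval -1.47 to 0.70).

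The non-collagen matrix proteins and the cross-linker of the list were not called. Fn1, fibronectin, the scaffold on which collagen fibrils are laid down, was at 71.0, 80.7, 105 and 77.3 CPM in ΔTAM mice and at 110, 108, 75.0 and 61.7 CPM in fl/fl mice. The ΔTAM values lay within the span of the fl/fl values, and the log2 fold change was -0.09 (95% interval -0.53 to 0.36, adjusted P = 0.893). Dcn, decorin, a small proteoglycan that binds fibrils and TGF-β, was at 30.0 to 38.6 CPM in ΔTAM and 29.1 to 36.2 CPM in fl/fl mice (log2 fold change 0.09, 95% interval -0.14 to 0.32). Lum, lumican, a related proteoglycan, was low at 0.722 to 2.44 CPM over all mice (0.52, adjusted P = 0.548). Postn, periostin, which is scarce in the healthy kidney and known to rise in injury, was at 1.75 to 6.04 CPM (log2 fold change -0.10, 95% interval -0.91 to 0.71). Lox, lysyl oxidase, which cross-links collagen, was at 9.72, 7.34, 8.32 and 6.44 CPM in ΔTAM mice and at 5.20, 3.16, 15.5 and 4.46 CPM in fl/fl mice. All fl/fl mice except mouse 3 were below every ΔTAM mouse, and the log2 fold change was 0.17 (95% interval -0.93 to 1.27, adjusted P = 0.919). Without fl/fl mouse 3 it was 0.90, and in the 5 high-Xist mice 0.82 (adjusted P = 0.0783).

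The growth factor, its target cells' receptors and the myofibroblast actin were not called either. Tgfb1, the main profibrotic cytokine, was at 14, 16.1, 17.9 and 20.2 CPM in ΔTAM mice and at 24.7, 20.4, 18.9 and 17.2 CPM in fl/fl mice. The upper ΔTAM values overlapped with the lower fl/fl values, and the log2 fold change was -0.26 (95% interval -0.56 to 0.05, adjusted P = 0.465). Pdgfra and Pdgfrb, the receptors of fibroblasts and pericytes, were at -0.05 (95% interval -0.40 to 0.29) and 0.09 (95% interval -0.19 to 0.37). Acta2, smooth muscle actin, the marker of myofibroblasts and of vessel walls, was at -0.17 (95% interval -0.62 to 0.29), with 22.0 to 38.0 CPM in ΔTAM and 25.9 to 41.8 CPM in fl/fl mice. The 14 fibroblast and pericyte markers, 7 of which are among the 42 genes, summed to 587 to 791 CPM in ΔTAM and 459 to 788 CPM in fl/fl mice, and none of the 14 was called. Their log2 fold change was positive in 11 and negative in 3, with a median of 0.11, where it was positive in 10166 of all 20149 genes tested. The genotypes overlapped in every one of the 14.

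Levels between genes were compared per kb of exon. Over both genotypes, Col4a1 was highest, at 54.1 ± 6.36 CPM per kb in ΔTAM and 58.5 ± 3.64 in fl/fl mice (SD, n = 4 each). Col4a2 followed at 43.3 ± 4.23 and 49.4 ± 2.43 CPM per kb, and Col18a1 at 38.8 ± 5.90 and 40.0 ± 7.00 CPM per kb. Col4a1 was above Col4a2 in every mouse, by a ratio of 1.18 to 1.28 in ΔTAM and 1.13 to 1.22 in fl/fl mice, whereas the ratio of Col4a2 to Col18a1 was 0.946 to 1.37 in ΔTAM and 1.04 to 1.51 in fl/fl mice, above 1 in all mice but ΔTAM mouse 4. The next genes, Acta2 (13.1 ± 3.61 and 14.8 ± 3.09), Pdgfrb (14.3 ± 1.54 and 13.4 ± 2.49) and Col1a1 (13 ± 3.92 and 11.6 ± 4.96 CPM per kb), had ranges of mean ± SD that overlapped. The choice of length mattered for the type I chains. Per kb of all annotated exons, the ratio of Col1a1 to Col1a2 was 1.19 to 1.52 in ΔTAM and 1.09 to 1.43 in fl/fl mice. Per kb of the longest coding transcript in GENCODE M21, a scale added after the data were seen, the ratio was 0.565 to 0.726 and 0.518 to 0.680. On that scale the 5 highest genes were Col4a1, Col18a1, Col4a2, Col1a2 and Dcn, of which 3 were also among the 5 highest per kb of exon.

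**Figure D3:**
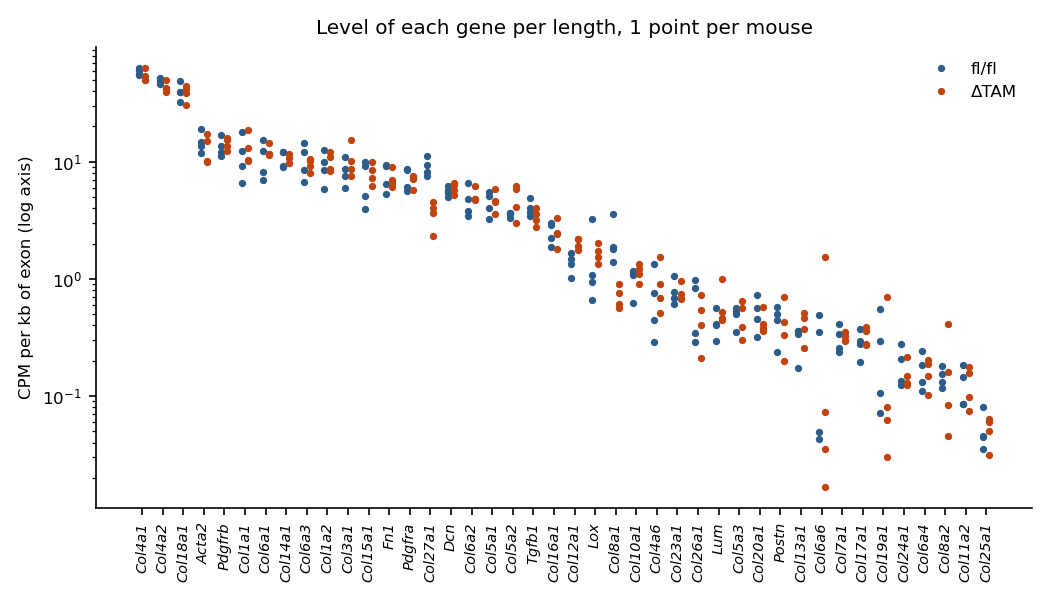
CPM per kb of exon (vertical log axis) of the 42 genes, 1 point per mouse, blue for fl/fl and red for ΔTAM, in order of the mean over both genotypes. Col4a1, Col4a2 and Col18a1 stand above the others, Col25a1 is lowest, and the red points are below the blue ones in Col27a1 and Col8a1.

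The count rule left out 8 collagen genes, and none of them had more than 24 counts in any library. Col9a1 had 0 counts in all 8 libraries, and Col2a1 and Col9a2, of cartilage, Col22a1, of tissue junctions, and Col28a1 had at most 7 counts in any library. Just outside the rule, Col6a5 had 10 or more counts in 2 libraries, with 4 to 24 counts. Just inside it were Col6a6, with 3 to 277 counts, and Col8a2, with 4 to 33 counts, each reaching 10 counts in 5 libraries.

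The genes also varied among mice of 1 genotype. The median CV over the 42 genes was 20.7% in ΔTAM and 26.1% in fl/fl mice. The summed level of the type I, III and VI chains (Col1a1, Col1a2, Col3a1, Col6a1, Col6a2 and Col6a3) was 440, 462, 662 and 524 CPM in ΔTAM mice and 679, 528, 409 and 313 CPM in fl/fl mice. The lowest ΔTAM mouse and the 2 lowest fl/fl mice were the 3 mice with low Xist. In 10 of the 42 genes (23.8%) all 3 of these mice lay below all of the other 5, against 6.85% of all genes tested. The 10 were Col1a1, Col1a2, Col5a1, Col6a2, Col6a3, Col15a1, Col16a1, Col25a1, Col26a1 and Fn1. In Col15a1, a collagen of the zone between basement membrane and interstitium, the 3 mice were at 39.7, 32.5 and 25.2 CPM, and the others at 46.3 to 63.3 CPM. In 2 genes (4.76%, against 7.43% of all genes) the 3 mice lay above all the others. Col19a1, a fibril-associated chain, was at 4.78, 2.03 and 3.81 CPM in them and at 0.205 to 0.736 CPM in the other 5, and Col6a6 was at 14.1, 3.20 and 4.52 CPM against 0.154 to 0.665 CPM. The mitochondrial share of these 3 libraries was 32.3%, 18.7% and 25.5%, and its part in the result was not tested. Fitted over the 5 high-Xist mice alone, the log2 fold change had the opposite sign to that over all 8 mice in 11 of the 41 members tested there, none of them called. Among these, Col1a1 was at -0.13, Col1a2 at -0.09, Col6a1 at -0.13, Col6a2 at -0.12 and Col15a1 at -0.16, where the fit of all 8 mice gave positive values. This split of the mice is not one of the study's groups, and it was drawn from Xist counts alone.

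**Figure D4:**
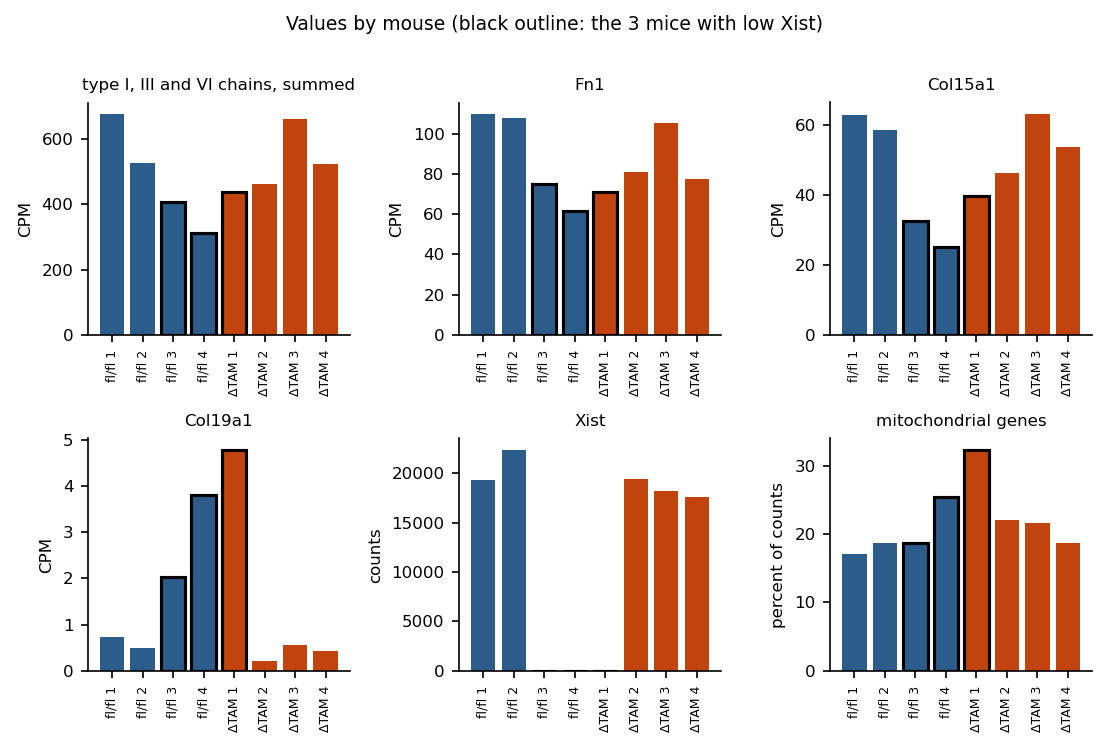
Values in each of the 8 mice (bars from 0, blue for fl/fl and red for ΔTAM): the summed CPM of type I, III and VI chains, the CPM of Fn1, Col15a1 and Col19a1, the Xist counts and the percent of counts in mitochondrial genes. The 3 outlined mice have low Xist, with the lowest Col15a1 (25.2 to 39.7 CPM) and the highest Col19a1 (2.03 to 4.78 CPM).

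Across the 8 mice, the genes whose log2 CPM followed Col1a1 most closely were Col1a2 (Pearson r = 0.975, n = 8), Gm37233 (0.966), Fstl1 (0.965), Emilin1 (0.961) and Mex3a (0.959). Without the 2 mice farthest from the median of Col1a1, fl/fl mouse 4 and ΔTAM mouse 3, the values were 0.974, 0.965, 0.927, 0.956 and 0.936. These correlations are descriptions over 8 libraries that share the depth and the Xist split given above. Among the 42 genes, Col6a2 (0.955), Col15a1 (0.941), Col3a1 (0.939) and Col6a1 (0.929) came next, while Col27a1 (-0.07) and Col8a1 (-0.22) did not follow Col1a1.

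The enzymes, inhibitors and signals around the collagens are read against the shares called over all genes tested, 2.16% in all, 0.586% higher and 1.58% lower. Of 29 genes of collagen synthesis and assembly 28 were tested, and 1 was called, higher. Loxl4, a lysyl oxidase-like cross-linking enzyme, was at 9.01, 10, 12.4 and 8.99 CPM in ΔTAM mice and at 5.20, 4.92, 6.29 and 4.75 CPM in fl/fl mice. The groups did not overlap, the log2 fold change was 0.93 (95% interval 0.58 to 1.28, adjusted P = 0.00988), and the gene was past the threshold in all 8 fits without 1 mouse and in all 11 other alternatives. Of 14 genes of collagen breakdown and its inhibitors 10 were tested, and 1 was called, lower. Timp3, an inhibitor of matrix metalloproteinases bound to the matrix, was at 956, 876, 853 and 775 CPM against 1076, 1152, 1348 and 1188 CPM. It fell by 0.46 on the log2 scale (adjusted P = 0.0416), and 21.3% of its exonic bases overlap Syn3. Its call was kept in 2 of the 8 fits without 1 mouse (log2 fold changes -0.51 to -0.40) and in 7 of the 11 other alternatives, and quantile normalization gave -0.27 (adjusted P = 0.185). None of 24 other interstitial matrix genes was called, and the smallest P values among them were those of Bgn, biglycan (log2 fold change 0.30, adjusted P = 0.219), and Eln, elastin (0.37, adjusted P = 0.428). The log2 fold change was positive in 19 of these 24 genes and negative in 5. None of 24 TGF-β and PDGF signalling genes was called, with Pdgfd (0.31, adjusted P = 0.247) and Ltbp2 (0.91, adjusted P = 0.259) nearest. None of 9 collagen receptors was called, with Ddr2, a receptor kinase that binds fibrillar collagen (0.42, adjusted P = 0.0734), and Itga1, the integrin α1 subunit (0.27, adjusted P = 0.214), nearest. At an unadjusted P under 0.05 the 5 lists in this order had 1 higher and 1 lower (Plod1), 1 lower, 1 higher, 2 higher and 3 higher genes, where 14% of all genes tested passed (1326 higher, 1499 lower). The median log2 fold change of the 5 lists in this order was -0.08, 0.03, 0.17, -0.02 and -0.01, beside 0.0027 over all genes tested.

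**Figure D5:**
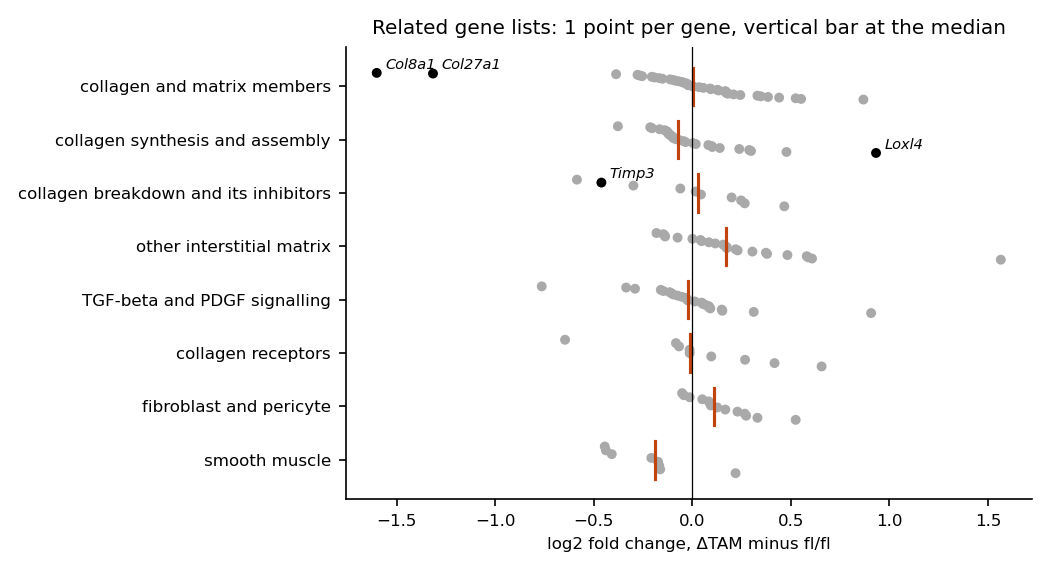
Log2 fold change (ΔTAM minus fl/fl) of each tested gene of the 42 collagen and matrix genes, of 5 related lists and of the fibroblast and smooth muscle marker lists, with a vertical bar at each list's median. Black points passed an adjusted P of 0.05: Col8a1 (-1.60), Col27a1 (-1.32), Timp3 (-0.46) and Loxl4 (0.93).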

How the data were processed

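RNA from 8 whole kidneys was depleted of ribosomal RNA and sequenced with a stranded kit as pairs of 36-base reads. The authors deposited 1 table of whole-number counts per gene, with the exonic length of each gene. Per the file header it was made with featureCounts 2.0.1 on an Ensembl 102 annotation of GRCm38, whereas the submitters' processing notes name Subread 2.0.2 and edgeR 3.36.0. The aligner is not given in the sources used here. The paper describes mapping and quantile scaling in another program, so the deposited counts may not be the values it used. All 8 columns of samples were used.

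The counts were tested with edgeR 4.0.16 in R 4.3.3: TMM factors (0.857 to 1.11), filterByExpr, a robust quasi-likelihood fit of genotype over all 8 libraries, and Benjamini-Hochberg adjustment over all 20149 genes tested, with a threshold of 0.05. The biological coefficient of variation was 0.203. The SE is the absolute log2 fold change over the square root of F, and levels are CPM after TMM, divided by kb of exon where genes are compared. Single genes were also tested with an exact permutation test over all 70 assignments. In a test on simulated data with 4 against 4 libraries and 19764 genes, the fit recovered 69% of changes of 2-fold and 90% of 4-fold, with 6 false calls of 165. None of the 12 pairs of libraries within a genotype agreed within sampling noise (chi-square per degree of freedom 5.48 or more).

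The genes described, their role groups, the related lists and the marker lists were chosen with earlier results of these data known. The text names Maf first, every member past the threshold, the 6 members with the smallest P in each direction, Col1a1, Fn1 and Tgfb1, the 5 highest per kb, a fixed set of members (Col4a1, Col4a2, Acta2, Pdgfra, Pdgfrb, Dcn, Lum, Postn and Lox), the members beside the count rule, in each related list the called genes or else the 2 with the smallest P, Col4a3 to Col4a5, and the 5 genes most correlated with Col1a1. The other members were named to complete their role group. The alternatives were the RLE factors, factors from the upper quartile, limma-trend 3.58.1 after quantile normalization, TMM without mitochondrial and ribosomal RNA genes, the edgeR exact test, DESeq2 1.42.0, other filters on low counts, the replicate number as a block, Xist as a covariate, the 5 mice with high Xist, and each mouse left out. Promoter sequences are from RefSeq on GRCm38.p6, and the figures were drawn with matplotlib 3.10.9.

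Of the marker lists, 3 of 8 proximal tubule genes (Slc34a1, Slc5a2 and Slc5a12) and 1 of 6 tested hepatocyte genes (Ttr) were called lower, besides Kdr of the endothelial list, against 1.58% of all genes tested. None was called among thick limb and distal tubule, collecting duct, podocyte, macrophage, lymphocyte, urothelium, adrenal cortex, cartilage, tubular injury or red cell markers, and none of the 4 adipocyte markers was tested.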

Additional observations from a re-analysis of the deposited data

Results flagged for a closer look

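A library stood apart from the other 3 of its genotype in 8 of the 84 groups examined (42 genes in each genotype) by Dixon's test, of which chance would flag about 4.2. In ΔTAM mouse 1, Col19a1 was at 4.78 CPM (0.205 to 0.555 in the others) and Col6a6 at 14.1 CPM (0.154 to 0.665). This mouse also had 2 counts of Xist, the only one of its genotype with low Xist, and a mitochondrial share of 32.3%, and their part in the result was not tested. In ΔTAM mouse 3, Col6a1 was at 63.5 CPM (50.3 to 51.3 in the others), Col6a2 at 52.0 CPM (39.3 to 39.9) and Lum at 2.44 CPM (1.08 to 1.27). The same mouse had the highest Col1a1 and Col3a1 of its genotype, at 121 and 149 CPM. In fl/fl mice, Lox was at 15.5 CPM in mouse 3 (3.16 to 5.20 in the others), Col10a1 at 1.94 CPM in mouse 4 (3.38 to 3.65) and Col13a1 at 0.813 CPM in mouse 2 (1.58 to 1.67). None of these 8 genes was called between the genotypes.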

How the results depend on the processing

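The number of members called was 2, both lower, with RLE or upper-quartile factors, quantile normalization, TMM without mitochondrial and ribosomal RNA genes, or at least 10 counts in every mouse (38 members tested). It was 3 with the edgeR exact test, DESeq2 or Xist as a covariate, which added Col12a1 (higher), 3 in the 5 mice with high Xist (41 members tested), which added Col6a3 (lower), and 1, Col12a1, with every gene of at least 1 count, where Col27a1 and Col8a1 had adjusted P values of 0.0534 and 0.0617. Leaving out each mouse gave 1 to 3 members called. The number of genes called, 436, was 676 with the exact test, 843 with DESeq2 and 600 with every gene of at least 1 count (37792 genes entered in both), 1471 with Xist as a covariate, 789 in the mice with high Xist and 239 to 452 with a mouse left out. The cause was not tested. The 2 calls in the related lists became 1 with upper-quartile factors, quantile normalization or the exact test, 6 with Xist as a covariate, 4 in the mice with high Xist and 1 to 3 with a mouse left out. With the replicate number as a block, 129 genes were called in all, 2 members and 1 gene of the related lists, and Maf had an adjusted P of 0.0516, beside 0.108 in the mice with high Xist. Same-numbered mice did not deviate together (correlations of -0.37, 0.15, -0.11 and -0.33), so the numbers were not taken as pairs. No called member changed sign in any alternative. At 4 mice per genotype, the interval of a member with a wide spread, such as Col6a6 or Col19a1, spans more than a doubling in either direction.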
